A study of Mus musculus with 116 samples.

Results

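S100a8, S100a9 and S100a10 are small mouse genes of the S100 family, and each was measured by 1 probe, so that 3 of the 15097 genes named on the arrays, and 3 of the 21797 probes tested, carry the values given here. They were picked by gene symbol, with the knowledge from these same arrays that they differed between the cell lines. Their levels and differences are therefore a description, with no p-value printed apart from a count over time of those with an unadjusted p under 0.05. Where a member's difference is said to pass, this gives only its place against the threshold of the fit over all probes, and it supports nothing, since the choice of genes had used these values. The arrays compared derivatives of FDB1, a mouse myeloid cell line that grows in interleukin-3 (IL-3) and differentiates in granulocyte-macrophage colony-stimulating factor (GM-CSF). V449E cells carry a V449E mutant and FI-Delta cells an FI-Delta mutant of the receptor chain shared by IL-3, GM-CSF and IL-5, the first altered in the transmembrane part and the second in the extracellular part. Both were taken from 500 U/mL IL-3 at 0 h and then kept without added factor to 6, 12, 24, 48 and 72 h. The parental FDB1 cells were taken from IL-3 at 0 h and then kept in 500 U/mL GM-CSF for the same times, and all cultures held 10% serum. After 0 h a difference from parental cells therefore holds both line and factor, which cannot be told apart. The 18 conditions had 2 replicates each, giving 36 RNAs, or 12 per line, on 116 two-colour arrays in 58 dye-swap pairs. The labels used here do not say what drives the mutant receptors, whether a line is 1 clone or a pool, or whether replicates were separate cultures, so the spread between replicates may be partly technical.

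A level below is the log2 signal of an RNA relative to the mean of the 18 RNAs of its replicate, and 0 is that mean. It says how one gene varies among the RNAs and nothing about how much of one gene there is relative to another. The sources do not state which dye is on top of the deposited log2 ratios. Cy5 was taken to be, as the likely direction, and with Cy3 on top every sign would turn. The 2 arrays of a dye swap should run opposite to each other, and their correlation was negative in all 58 pairs, from -0.653 to -0.0327, next to no relation at the weak end. In a bulk culture, fewer cells of a type and less RNA per cell cannot be told apart. One condition stands apart for 2 of the 3 genes and has to be known before the results. The V449E 0 h replicates were 2.51 apart on the log2 scale for S100a9 and 2.24 apart for S100a8, ranks 1 and 2 among the 21797 probes in that condition. Over all probes that condition had the tightest replicates of the 18, with an SD of replicate differences of 0.104. Its RNA was on 32 arrays, where conditions were on 8 to 32, and more arrays average out more array noise. The parental 0 h RNA was also on 32 arrays and had an SD of 0.157.

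S100a8 and S100a9 proteins pair to form calprotectin, a complex that binds calcium and also zinc and manganese. It fills the cytosol of neutrophils and is also found in monocytes, and when released it withholds metals from microbes and is a ligand of the receptor Tlr4. Both genes are switched on during granulocyte and monocyte maturation, in which C/EBP transcription factors take part. S100a10, also called p11, is the family member whose calcium sites are inactive. It forms a tetramer with annexin A2 at the plasma membrane, where it binds plasminogen and plasminogen activators, and it helps to bring ion channels to the cell surface.

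All 3 genes lie on mouse chromosome 3. S100a8 and S100a9 are neighbours in the RefSeq order of S100 genes there, and S100a10 follows S100a11. RefSeq promoters on GRCm38.p6 matched 2 of the 3 members. They are shown because the levels of S100a8 and S100a9 ran together across the RNAs. The S100a8 stretch is chr3:90668821-90669090 on the plus strand and the S100a9 stretch chr3:90695702-90695971 on the minus strand. Each is 270 bases long, with 250 bases before the annotated start and 20 from it, and capitals mark matches to TATAAA and to TTNNGNAA, a core that C/EBP factors bind.
S100a8: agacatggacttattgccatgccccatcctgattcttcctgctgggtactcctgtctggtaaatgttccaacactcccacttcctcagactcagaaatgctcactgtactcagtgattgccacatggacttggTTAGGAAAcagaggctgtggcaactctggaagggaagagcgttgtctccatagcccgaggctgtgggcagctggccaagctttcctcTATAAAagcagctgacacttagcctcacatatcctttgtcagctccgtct
S100a9: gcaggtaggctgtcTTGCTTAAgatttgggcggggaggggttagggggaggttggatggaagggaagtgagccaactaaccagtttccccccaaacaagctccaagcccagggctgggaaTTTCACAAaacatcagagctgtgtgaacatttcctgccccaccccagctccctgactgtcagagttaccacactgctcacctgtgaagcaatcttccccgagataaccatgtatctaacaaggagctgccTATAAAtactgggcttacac
Motifs were searched on both strands of a window of 300 bases that runs to 50 bases from the start, and positions are those of the first letter, with the start base as 0. The S100a8 promoter held TATAAA at -30 and TTAGGAAA at -117. The S100a9 promoter held TATAAA at 0 by the annotated start, and TTNNGNAA on the minus strand at -236 and -130. Of 32851 RefSeq promoters of that length, 13.6% held TATAAA and 40.7% held TTNNGNAA. GAGGAA, an ETS factor core, stood on the minus strand of the S100a8 promoter at -170 and -36, and 28.3% of promoters held it. TTCNNNGAA, the core that STAT factors bind, was in neither of these windows and in 8.3% of promoters. No match overlapped another, and these are letter matches only.

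The S100a8 level was lowest in V449E cells at all times. In replicates 1 and 2 of V449E cells it was -2.86 and -0.62 at 0 h, -1.68 and -2.17 at 6 h, -1.58 and -1.71 at 12 h, -1.26 and -1.75 at 24 h, -1.40 and -2.09 at 48 h, and -0.81 and -1.21 at 72 h. In FI-Delta cells it was 0.52 and 0.83 at 0 h, 0.75 and 0.72 at 6 h, 1.26 and 0.63 at 12 h, 1.5 and 0.75 at 24 h, 1.29 and 0.60 at 48 h, and 1.06 and 1.60 at 72 h. In parental cells it was 0.33 and 1.01 at 0 h in IL-3, then in GM-CSF 0.10 and 0.02 at 6 h, -0.06 and 0.32 at 12 h, 0.61 and 0.76 at 24 h, 0.83 and 0.83 at 48 h, and 1.41 and 1.48 at 72 h. The highest V449E RNA, replicate 2 at 0 h, was still 0.56 below the lowest parental RNA and 1.14 below the lowest FI-Delta RNA, whereas the FI-Delta and parental RNAs overlapped. In order, the line means were -1.60 in V449E, 0.96 in FI-Delta and 0.64 in parental cells, and the last 2 lines do not differ beyond their spread.

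S100a9, the partner of S100a8 in calprotectin, had the same order of lines. Its V449E levels were -3.19 and -0.68 at 0 h, -1.76 and -1.91 at 6 h, -1.33 and -1.80 at 12 h, -1.43 and -2.01 at 24 h, -1.23 and -2.46 at 48 h, and -0.99 and -1.18 at 72 h. Its FI-Delta levels were 0.45 and 0.70 at 0 h, 0.72 and 0.69 at 6 h, 1.19 and 0.94 at 12 h, 1.35 and 0.76 at 24 h, 1.79 and 0.95 at 48 h, and 1.20 and 1.76 at 72 h. Its parental levels were 0.31 and 0.94 at 0 h in IL-3, then in GM-CSF 0.01 and -0.07 at 6 h, -0.05 and 0.34 at 12 h, 0.57 and 0.45 at 24 h, 0.95 and 0.91 at 48 h, and 1.43 and 1.70 at 72 h. The 12 V449E RNAs lay between -3.19 and -0.68 with a median of -1.59, all below the 12 FI-Delta RNAs, which lay between 0.45 and 1.79 with a median of 0.94, and all below the 12 parental RNAs, which lay between -0.07 and 1.70 with a median of 0.51. The gap was 1.13 to the FI-Delta RNAs and 0.61 to the parental RNAs. For orientation, over all probes 0.752% had every V449E RNA below every FI-Delta RNA and 0.275% had every V449E RNA below every parental RNA.

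S100a10, the annexin A2 partner, ran the other way and separated all 3 lines. Its V449E levels were 1.13 and 1.04 at 0 h, 1.27 and 1.23 at 6 h, 0.98 and 0.96 at 12 h, 1.14 and 1.32 at 24 h, 0.75 and 1.30 at 48 h, and 1.02 and 1.27 at 72 h. Its FI-Delta levels were -0.99 and -1.32 at 0 h, -1.27 and -1.01 at 6 h, -1.05 and -1.24 at 12 h, -1.26 and -1.5 at 24 h, -1.04 and -1.26 at 48 h, and -0.98 and -1.17 at 72 h. Its parental levels were 0.01 and -0.28 at 0 h in IL-3, then in GM-CSF 0.39 and 0.05 at 6 h, -0.19 and 0.28 at 12 h, -0.05 and -0.01 at 24 h, -0.08 and -0.07 at 48 h, and 0.21 and 0.39 at 72 h. The V449E RNAs lay 1.73 above the highest FI-Delta RNA and 0.36 above the highest parental RNA, and the FI-Delta RNAs lay 0.71 below the lowest parental RNA. After 0 h no array held both V449E and parental RNA, so their gap rests on levels joined through other comparisons. At 0 h the V449E minus FI-Delta difference in replicates 1 and 2 was 2.16 and 2.64 on direct arrays. Over the parental RNA it was 1.10 and 1.61, so the gaps to the parental RNAs depend on how such routes are joined. The line means were 1.12 in V449E, -1.17 in FI-Delta and 0.06 in parental cells, and no neighbours in that order overlapped. Over all probes, 0.495% had every V449E RNA above every FI-Delta RNA, 0.33% had every V449E RNA above every parental RNA and 0.0413% had every FI-Delta RNA below every parental RNA. The within-line spread was far smaller than for calprotectin, with a range of 0.75 to 1.32 in V449E cells and -1.5 to -0.98 in FI-Delta cells.

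**Figure D1:**
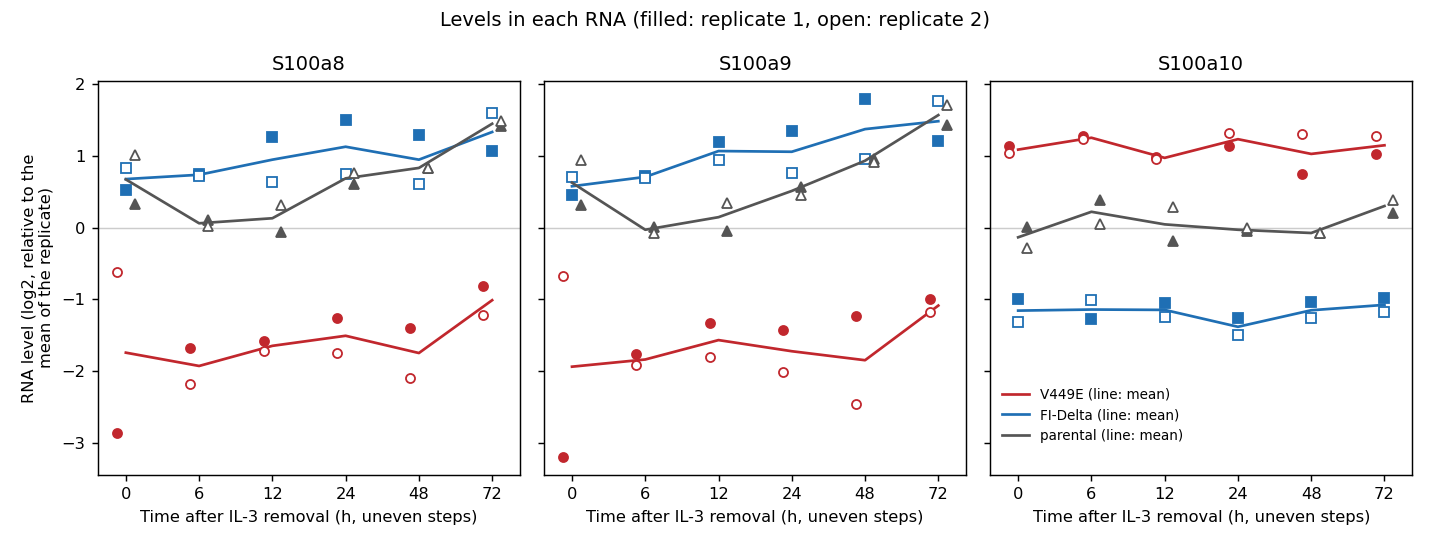
Level of S100a8, S100a9 and S100a10 in each of the 36 RNAs, on the log2 scale relative to the mean of the replicate's 18 RNAs, against time in hours. Lines join the means of each cell line, filled points are replicate 1 and open points replicate 2. The V449E points lie below the others for S100a8 and S100a9 and above the others for S100a10, and the V449E 0 h replicates are -2.86 and -0.62 for S100a8.

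V449E minus FI-Delta differences were fitted at each time with limma over all 21797 probes, with a threshold of 0.05 on the Benjamini-Hochberg adjusted p. For S100a8 they were -2.41, -2.66, -2.60, -2.63, -2.69 and -2.34 from 0 to 72 h (log2, SE 0.43), which is 5.07- to 6.46-fold lower in V449E cells. For S100a9 they were -2.51, -2.54, -2.63, -2.77, -3.21 and -2.57 (SE 0.48), or 5.70- to 9.27-fold lower. For S100a10 they were 2.24, 2.39, 2.12, 2.61, 2.17 and 2.22 (SE 0.17), or 4.35- to 6.12-fold higher. As a description, each gene was past that threshold at 6 of 6 times with both replicates on the same side, which the choice of these genes favours. The share of all probes that passed as lower in V449E cells was 0.11, 0.44, 0.67, 1.89, 4.59 and 7.65% from 0 to 72 h, and as higher 0.115, 0.376, 0.436, 1.47, 3.69 and 9.02%. S100a10 differed by about as much in IL-3 at 0 h as after 72 h without factor. For S100a8 and S100a9 the fitted values at these 2 times were also close, but the 0 h replicates were far apart. For S100a8 the replicates were -3.38 and -1.45 at 0 h and -1.87 and -2.82 at 72 h. For S100a9 they were -3.64 and -1.39 at 0 h and -2.19 and -2.94 at 72 h. The differences at 24, 48 and 72 h passed for all members whichever RNA was left out, and those of S100a10 did so at every time. At 6 and 12 h S100a8 and S100a9 kept their direction whichever RNA was left out, with S100a8 at 12 h between -2.93 and -2.26, but did not always pass. S100a8 lost it at 6 h without V449E replicate 2 (-2.40) and at 12 h without FI-Delta replicate 1 (-2.26). S100a9 lost it at 6 h whichever of the 4 RNAs was left out (-2.62 to -2.45) and at 12 h without V449E replicate 2 (-2.38) or FI-Delta replicate 1 (-2.50).

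The V449E cells also differed from parental cells when both were in IL-3 at 0 h. S100a8 was 5.32-fold lower, with a log2 difference of -2.41 (replicates -3.19 and -1.63), and S100a9 5.89-fold lower, at -2.56 (replicates -3.50 and -1.62). S100a10 was 2.33-fold higher, at 1.22 (replicates 1.12 and 1.32), and the arrays that held both RNAs gave 0.80 alone, not past the threshold. All 3 were past the threshold, where 0.271% of probes were as lower and 0.463% as higher, and nothing is read from this for genes chosen on such differences. Without V449E replicate 1 both calprotectin genes were at -1.23 and did not pass, and without parental replicate 2 they were at -2.05 for S100a8 and -2.23 for S100a9 and did not pass either. The same V449E RNA entered the comparison with FI-Delta at 0 h, where S100a8 was at -1.23 and S100a9 at -1.18 without it and neither passed. There they also missed the threshold without FI-Delta replicate 1 (-2.58 for S100a8 and -2.65 for S100a9) or replicate 2 (-2.25 and -2.38, in that order).

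FI-Delta cells, set against parental cells at the same time, passed for S100a10 and for neither calprotectin gene. Only 0 h is matched for factor, since from 6 h on the parental cells were in GM-CSF and the FI-Delta cells without factor. The S100a10 differences were -1.02, -1.36, -1.19, -1.35, -1.08 and -1.38 from 0 to 72 h (SE 0.17), 2.03- to 2.59-fold lower in FI-Delta cells, and were past the threshold at 6 of 6 times. The share of probes that passed as lower was 0.0138, 0.0734, 0.078, 0.0413, 0.078 and 0.372%, and in either direction 0.106, 0.491, 0.307, 0.174, 0.289 and 0.885%. S100a8 was at 0, 0.67, 0.82, 0.44, 0.12 and -0.11 (SE 0.43) and S100a9 at -0.05, 0.73, 0.92, 0.55, 0.44 and -0.09 (SE 0.48), and neither passed at any time. These comparisons use the same FI-Delta RNAs as those with V449E cells, so the 2 sets of values are not separate evidence. S100a10 at 0 h did not pass without FI-Delta replicate 2 (-0.85) or parental replicate 1 (-0.87), nor at 48 h without FI-Delta replicate 2 (-0.96). With direct arrays only, S100a10 at 0 h was -0.56, and at each time but 72 h it missed the threshold in at least 1 of the 2 dye orientations taken alone.

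**Figure D2:**
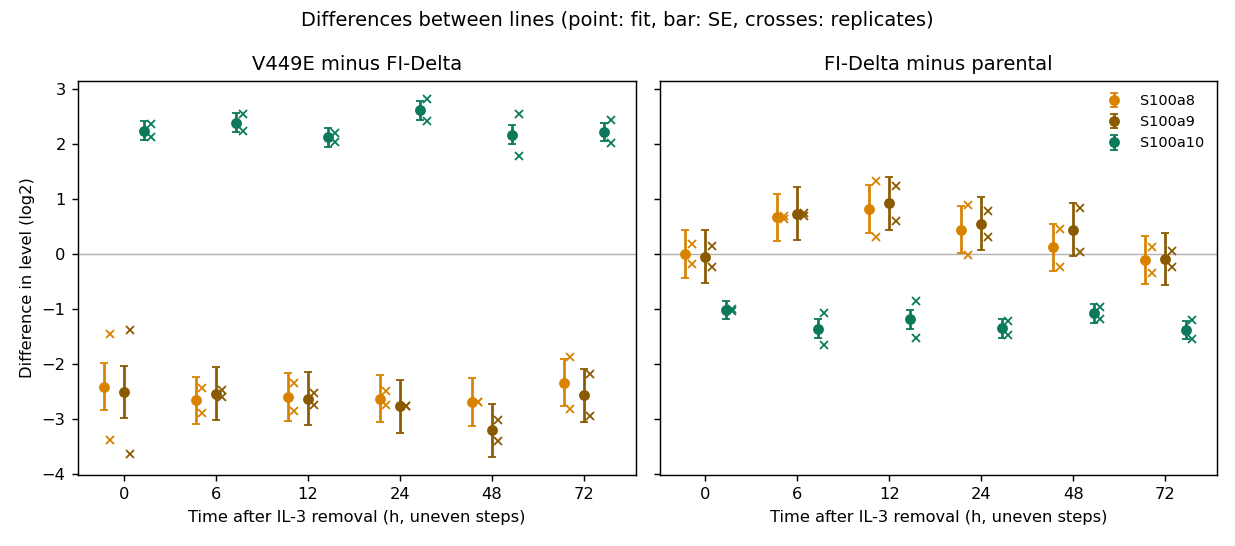
Differences between lines at each time in hours for the 3 genes, on the log2 scale, V449E minus FI-Delta and FI-Delta minus parental. Points are the fitted differences, bars 1 SE, and crosses the 2 replicates. V449E minus FI-Delta stays between -2.69 and -2.34 for S100a8 and between 2.12 and 2.61 for S100a10, and FI-Delta minus parental lies between -1.38 and -1.02 for S100a10.

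The single arrays show where the V449E 0 h gap lies. V449E 0 h RNA was on 32 arrays. On the arrays that set later V449E RNA against it, the S100a8 log2 ratio of later over 0 h, averaged over each dye-swap pair, was 1.43, 1.44, 1.60, 1.47 and 2.46 at 6 to 72 h in replicate 1 and -1.31, -0.81, -1.21, -1.90 and -0.52 in replicate 2. For S100a9 it was 1.61, 1.84, 1.67, 2.01 and 2.36 in replicate 1 and -1.02, -1.17, -1.51, -1.84 and -0.45 in replicate 2. All 5 pairs of replicate 1 were above 0 and all 5 of replicate 2 below, so the gap repeats on every comparison that holds these RNAs. Against parental 0 h RNA, S100a8 stood at -2.68 and -2.86 on print runs 1 and 2 in replicate 1 and at -1.96 and -1.52 in replicate 2. S100a9 stood at -3.36 and -3.31 in replicate 1 and at -1.61 and -1.53 in replicate 2. Both replicates were thus below parental cells on both print runs, replicate 1 further than replicate 2. S100a10 did not have the gap, with 1.13 and 1.04 in the 2 replicates. Its values against parental 0 h RNA were 0.72 on both runs in replicate 1, and 1.32 and 0.44 in replicate 2. The probes next in order of that replicate gap were Ngp at -2.14, Prtn3 at -1.48, Ltf at -1.38 and Camp at -1.09, all of them granule proteins of neutrophils or their precursors. Of the 15 neutrophil granule genes listed, 13 were lower in replicate 1, with a median of -0.39, against 11312 of 21797 probes with a median of 0. Their part in the calprotectin gap was not tested.

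**Figure D3:**
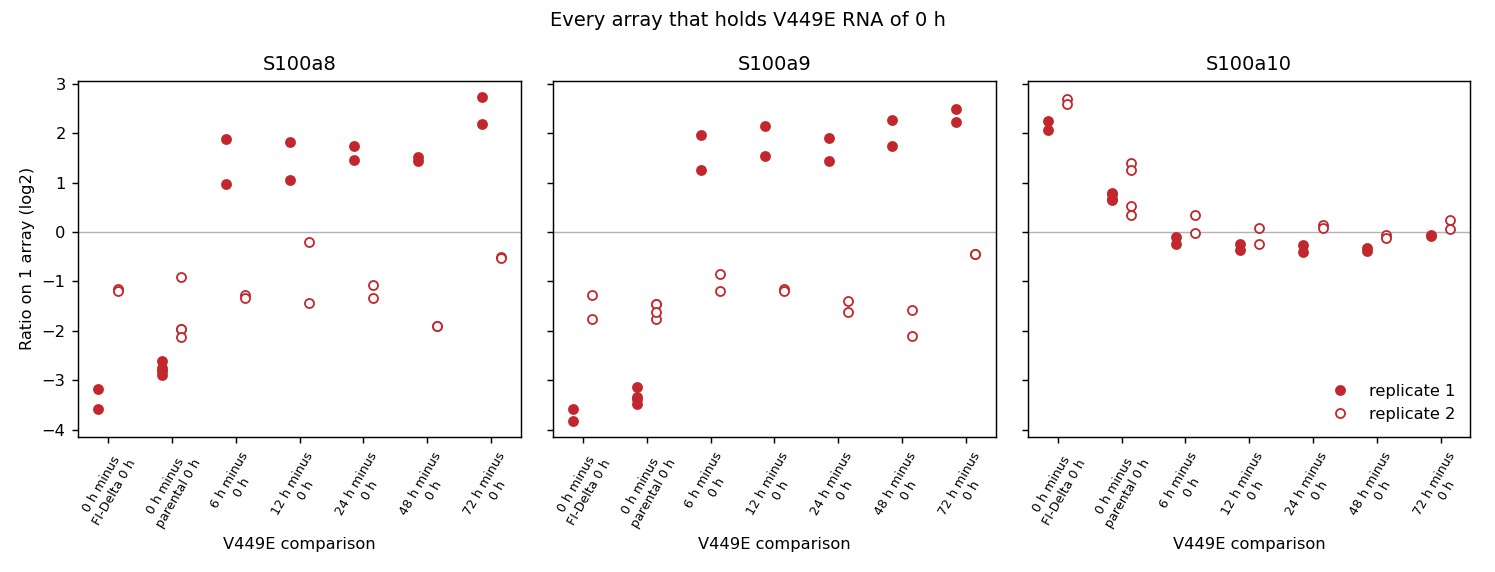
Log2 ratio on each single array that holds V449E 0 h RNA, by comparison, with filled points for replicate 1 and open points for replicate 2. For S100a8 and S100a9 the later V449E RNAs are above 0 h in replicate 1 and below it in replicate 2, with pair means of S100a8 at 6 h of 1.43 and -1.31, and the S100a10 replicates lie together.

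No member passed over time in any line. Of 45 differences from 0 h (3 genes, 3 lines and 5 times), 0 passed in limma, 2 had an unadjusted p under 0.05, and 18 had both replicates on the same side. The 2 were S100a10 in parental cells in GM-CSF, at 6 h (0.35) and 72 h (0.43). At 72 h the differences of S100a8, S100a9 and S100a10 were 0.73, 0.85 and 0.06 in V449E cells, 0.66, 0.90 and 0.08 in FI-Delta cells, and 0.77, 0.94 and 0.43 in parental cells. None of these 9 values passed, at an SE of 0.43 for S100a8, 0.48 for S100a9 and 0.17 for S100a10. The calprotectin values in V449E cells are means of opposite replicates. Each SE comes from 1 fit over all 18 conditions, so the V449E 0 h gap enters it in every line. The replicate SD at V449E 0 h was 1.58 for S100a8 and 1.77 for S100a9, against at most 0.53 and 0.87 in the other conditions. The part of that gap in the results over time was not tested. In parental cells S100a8 and S100a9 were at -0.61 and -0.65 at 6 h and -0.54 and -0.48 at 12 h of GM-CSF, again without passing. The share of all probes that passed in either direction at 6, 12, 24, 48 and 72 h was 0.702, 1.28, 1.45, 0.00459 and 0% in V449E cells, 0.725, 5.06, 1.42, 4.44 and 15.3% in FI-Delta cells and 0.44, 2.92, 1.1, 1.32 and 5.47% in parental cells. For V449E cells at 72 h the 0 probes compare with 933 at an unadjusted p under 0.05. The 72 h changes did not pass as different between lines either, and these tests were wide. The difference of changes lay between -0.11 and 0.07 for S100a8 (SE 0.61), between -0.10 and -0.04 for S100a9 (SE 0.68) and between -0.38 and -0.02 for S100a10 (SE 0.24). Of all probes, 3.59% passed for V449E against FI-Delta, 0.629% for V449E against parental and 0.00459% for FI-Delta against parental.

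Across the 18 condition means, the relative levels of S100a9 followed those of S100a8 with a Pearson r of 0.994 and a Spearman rho of 0.973. The points share arrays, replicates and the split between lines. Within the lines, over 12 RNAs each, r was 0.952 in V449E, 0.872 in FI-Delta and 0.977 in parental cells. The relative level of S100a9 minus that of S100a8 ranged from -0.37 to 0.50 with a median of -0.03, and 30 of 36 RNAs were within 0.3 of 0. S100a10 had an r of -0.853 with S100a8 over the 18 means. Within the lines that relation was weak, at -0.302 in V449E, 0.146 in FI-Delta and 0.128 in parental cells.

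**Figure D4:**
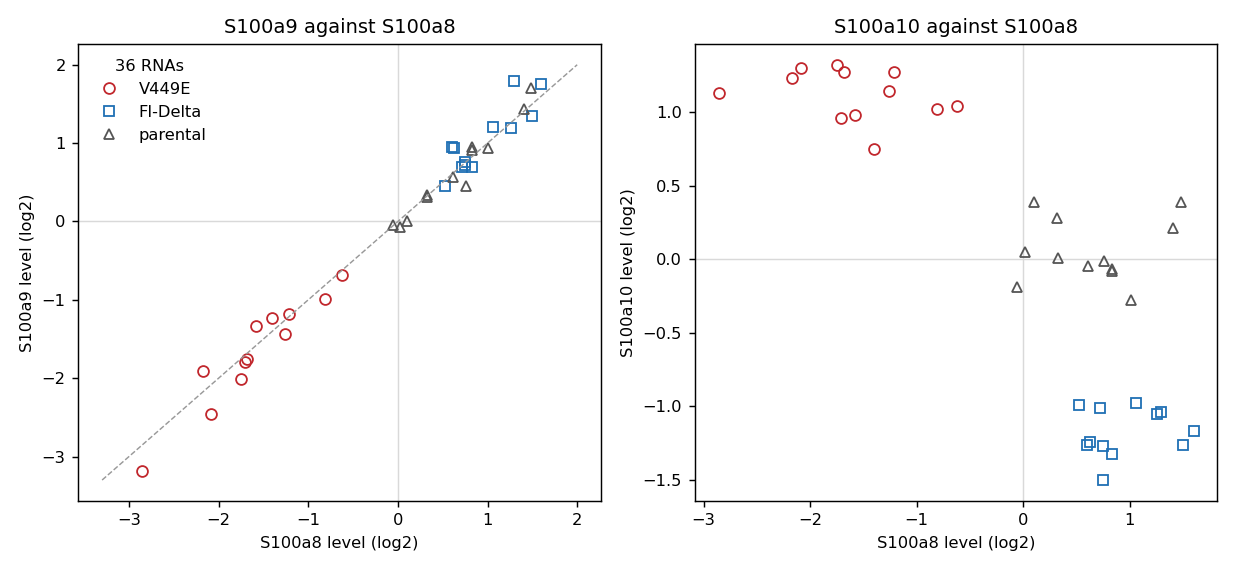
Relative log2 levels of S100a9 (left) and S100a10 (right) against S100a8 in the 36 RNAs, coloured by line, with a dashed line of equality on the left. S100a9 follows S100a8 with r = 0.994 over the 18 condition means, and S100a10 falls into 3 separate levels with line means of 1.12 in V449E, -1.17 in FI-Delta and 0.06 in parental cells.

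The genes whose 18 condition means ran most like S100a8 were, after S100a9, Stfa1 (r = 0.988), Scarb1 (0.979), Stfa3 (0.968) and Fam217b (0.958). The same 4 genes were the nearest to S100a9 after S100a8. Stfa1 and Stfa3 code for stefin A cysteine protease inhibitors, and Scarb1 for a receptor of high-density lipoprotein. The Stfa3 line means were -2.44 in V449E, 1.76 in FI-Delta and 0.68 in parental cells, a wider spread than for calprotectin, and those of Fam217b were -0.41, 0.23 and 0.18 in the same order. For S100a10 the nearest were Prnp (0.943), which codes for the prion protein, Nenf (0.938), Vmn1r11 (0.938), Bex3 (0.918) and Prxl2a (0.915). Prnp had line means of 0.85 in V449E, -0.69 in FI-Delta and -0.16 in parental cells. The other 4 had a narrower range, from 0.11 to 0.41 in V449E and from -0.31 to -0.12 in FI-Delta cells. These genes were picked for their likeness, so their differences between lines carry no test.

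Of the 14 other S100 genes listed, 11 were measured, by 12 probes. None passed as higher in V449E than in FI-Delta cells, as S100a10 did, and 3 of them, S100a6, S100a11 and S100a13, passed in the same direction as calprotectin. Over all probes, 0.11, 0.44, 0.67, 1.89, 4.59 and 7.65% passed as lower from 0 to 72 h, so counts at different times are not alike. S100a6 was lower in V449E than in FI-Delta cells at 5 of 6 times (log2 differences over all times -0.91 to -0.31, SE 0.11), and at 72 h by -0.82 (adjusted p = 1.21e-05, limma). S100a11, the neighbour of S100a10 on the chromosome, was lower at 4 of 6 times and at 72 h by -0.75 (SE 0.09, adjusted p = 2.65e-06). S100a13 was lower at 48 h by -0.71 and at 72 h by -0.45 (adjusted p = 0.00094 at 72 h). Of the 4 fits without 1 RNA, S100a6 missed the threshold in 3 at 6 h and in 1 at 12 h, S100a11 in 3 at 12 h, and S100a13 in none. S100a3, S100a5, S100a14, S100a16, S100b and S100g passed in no comparison here. Against parental cells, FI-Delta cells were higher for S100a6 at 4 of 6 times (0.28 to 0.78 over all times), for S100a11 at 24 h (0.46) and for 1 S100a4 probe at 0 h (0.56). Between 0.106 and 0.885% of all probes passed in either direction in those comparisons. At 0 h both S100a6 and S100a4 missed the threshold in 4 of 4 fits without 1 RNA, and S100a11 at 24 h in 3. S100a6 also missed it in 2 such fits at 6 h and in 1 each at 24 and 48 h.

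Several of these genes passed over time, with changes no larger than those of S100a8 and S100a9 in most cases but with smaller errors. The V449E 0 h gap enters the errors of S100a8 and S100a9 in every line, and its part in their not passing was not tested. In FI-Delta cells at 72 h without factor S100a6 rose by 0.56 (adjusted p = 0.00104), S100a11 by 0.56 (0.000155), S100a13 by 0.45 (0.0014) and S100a1 by 0.58 (0.00476). In parental cells after 72 h of GM-CSF S100a6 rose by 0.89 (adjusted p = 3.15e-05), S100a11 by 0.68 (5.38e-05), S100a13 by 0.52 (0.000925) and 1 of the 2 S100a4 probes by 0.45 (0.0123). The other S100a4 probe passed at no time in GM-CSF, with changes from -0.23 to 0.35. S100a1 in FI-Delta cells (0.38 to 0.79) and S100a4 in parental cells (0.36 to 0.54) each missed the threshold in 2 of 4 fits without 1 RNA, and S100a4 was as low as 0.20 under another setting. Thus 4 of 12 probes passed at 72 h in each of these 2 lines, all higher, where 15.3% of all probes passed in FI-Delta and 5.47% in parental cells. In V449E cells none passed at any time. The test of the difference between the 72 h changes passed for S100a11 in V449E against FI-Delta (-0.52, adjusted p = 0.0221) and for S100a6 (-0.83, 0.00906) and S100a11 (-0.64, 0.0135) in V449E against parental cells. Of 8 fits without 1 RNA these missed the threshold in 5, 2 and 4. In IL-3 at 0 h, V449E against parental, 1 of the 2 S100a4 probes was higher by 0.63 (SE 0.11, adjusted p = 0.0033) and the other was at 0.20 and did not pass. The first did not pass without V449E replicate 1 (0.51) or parental replicate 2 (0.55).

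**Figure D5:**
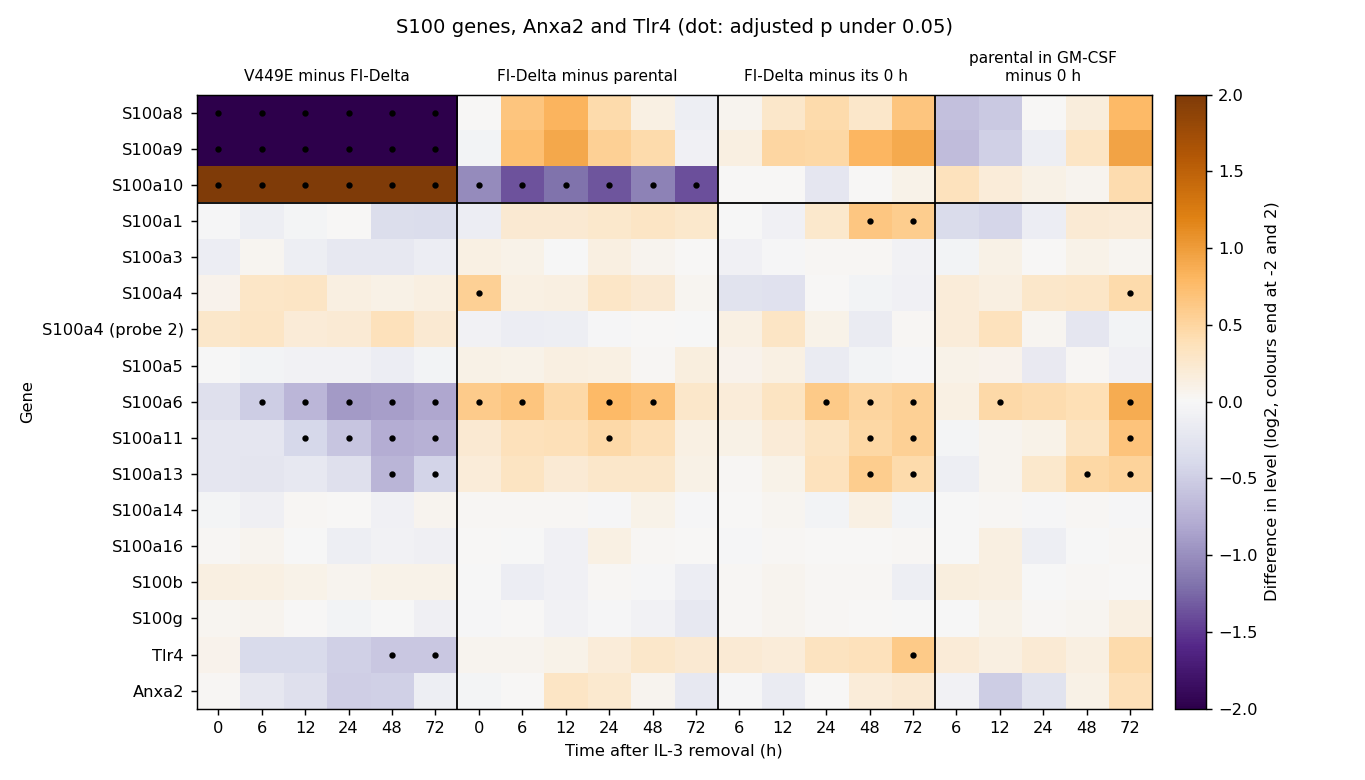
Heat map of log2 differences of the members, the other S100 genes, Tlr4 and Anxa2 (down the page) over the comparisons by time in hours (across), with colours that end at -2 and 2 and dots where the adjusted p was under 0.05. The V449E minus FI-Delta columns are dotted at 6 of 6 times for the 3 members, and S100a6 is dotted at 5 of 6.

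Anxa2, the partner of S100a10 in its tetramer, did not follow it. Its V449E minus FI-Delta differences ranged from -0.50 to 0.02 (SE 0.16), with -0.12 at 72 h (adjusted p = 0.692), and it passed in no comparison. Of the 14 genes listed as S100a10 partners and plasmin system members, 13 were measured by 16 probes. At 72 h, V449E minus FI-Delta, 1 of the 16 probes passed as higher and 5 as lower, with a median of -0.15, against 9.02% higher and 7.65% lower over all probes. Plg, the gene of plasminogen, was at -1.42 (SE 0.23, adjusted p = 0.000127), and Plaur, the receptor of urokinase, at -1.25 (SE 0.15, 2.27e-06). Anxa1, another annexin, was at -1.06 (SE 0.16, adjusted p = 5.75e-05), and Plat, tissue plasminogen activator, at 0.71 (SE 0.14, 0.000815).

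Of 9 genes listed as calprotectin receptors and their signalling, 1 passed as higher and 3 as lower in V449E than in FI-Delta cells at 72 h, with a median of -0.20, beside 9.02% of all probes higher and 7.65% lower. Tlr4 was lower by 0.55 on the log2 scale at 48 h and again at 72 h, with a 72 h difference of -0.55 (adjusted p = 0.00537), and at each time 2 of the 4 fits without 1 RNA missed the threshold. Tlr4 rose in FI-Delta cells by 72 h (0.62, adjusted p = 0.00236, missed in 2 of 4 fits without 1 RNA), and its change in parental cells was 0.44 (adjusted p = 0.0542). Cd33, a sialic acid-binding receptor of myeloid cells, was at -1.12 (SE 0.14, adjusted p = 5.51e-06). Cd14, the lipopolysaccharide co-receptor, was at -0.74 (SE 0.26, adjusted p = 0.0489), lost in 3 of 4 fits without 1 RNA. Emb, the gene of embigin, was at 0.63 (SE 0.13, adjusted p = 0.00116). Of 12 probes for myeloid regulators, 2 passed as higher and 5 as lower, with a median of -0.17. These probes covered 11 of the 12 genes listed, and Cebpe was not matched to a probe. Klf5 was at -1.11 (SE 0.18, adjusted p = 0.000128). Among the C/EBP genes, Cebpd was at -0.92 (SE 0.17, 0.000427) and Cebpb at -0.80 (SE 0.13, 0.000104), whereas Cebpa was higher in V449E cells at 0.87 (SE 0.17, 0.000982) and missed the threshold in 1 fit without 1 RNA, at 0.61.

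Among marker lists of the cell types these cultures could hold, the granule and mast cell lists differed most between the V449E and FI-Delta lines at 72 h. Of all probes, 9.02% passed there as higher and 7.65% as lower. The lists were chosen with earlier results of these data known, so the adjusted p-values of their genes are a description. Neutrophil granule genes were lower in V449E than in FI-Delta cells at 72 h for 9 of 15 and higher for 0, with a median of -1.44, against -0.007 over all probes. Ltf, lactoferrin, was at -4.06 (SE 0.60, adjusted p = 4.21e-05), and Lcn2, lipocalin 2, at -3.29 (SE 0.36, 1.01e-06). Camp, cathelicidin, was at -3.23 (SE 0.46, 2.65e-05), and Ngp, neutrophilic granule protein, at -3.11 (SE 0.52, 0.000169). Mast cell and basophil genes were higher for 4 of 8 and lower for 0, with a median of 0.75. They were Cpa3, carboxypeptidase A3, at 3.02 (SE 0.24, adjusted p = 9.75e-09), Fcer1a, a chain of the IgE receptor, at 2.14 (SE 0.14, 3.76e-10), Gata2 at 1.35 (SE 0.19, 2.52e-05) and Mcpt8 at 1.23 (SE 0.20, 0.000127). Macrophage genes went both ways, 2 of 9 probes higher and 3 lower. The integrin chain Itgam was at -1.41 (SE 0.19, adjusted p = 9.59e-06), Mpeg1 at -0.78 (0.0238) and Ctss at -0.70 (0.0252), and Adgre1 at 0.67 (0.0127). Of the 4 fits without 1 RNA, Mpeg1 missed the threshold in 4, Ctss in 3 and Adgre1 in 2. Of 6 erythroid and megakaryocyte genes 2 were higher, Itga2b at 1.14 (adjusted p = 8.42e-06) and Hba-a1 at 0.69 (0.00503), and of 15 lymphoid probes 1 was higher, Rag1 at 0.24 (0.0298), a smaller share than over all probes. Rag1 missed the threshold in 3 of 4 fits without 1 RNA and Hba-a1 in 1.

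At 0 h in IL-3 the members were past the threshold in V449E against both other lines, though S100a8 and S100a9 not without V449E replicate 1. Fewer markers passed there than in V449E minus FI-Delta cells at 72 h. In V449E minus parental cells 0.271% of all probes passed as lower, 0.463% as higher and 0.734% in either direction. There 3 of 15 granule genes were lower, Ngp at -2.54 (SE 0.52, adjusted p = 0.0191), Camp at -2.03 (SE 0.46, 0.0377) and Fcnb, ficolin B, at -1.11 (SE 0.25, 0.0326), with a list median of -0.42. None of the 3 passed without V449E replicate 1 or without parental replicate 2. One mast cell gene, Fcer1a (0.59), and 1 macrophage probe, Cd68 (0.89), were higher, but Fcer1a missed the threshold in 3 of 4 fits without 1 RNA (0.30 to 0.87) and Cd68 in 1. In V449E minus FI-Delta cells at 0 h, 1 of 15 granule genes, Lcn2 (-2.02), was lower and 1 of 8 mast cell genes, Fcer1a (0.68), was higher. Without 1 RNA they ran from -2.30 to -1.74 and from 0.61 to 0.75, and neither passed in every such fit. Of all probes 0.11% passed there as lower and 0.115% as higher. Over time, macrophage genes rose for 5 of 9 probes and fell for 1 in FI-Delta cells at 72 h without factor. Granule genes rose there for 7 of 15, where 15.3% of all probes passed. The 2 Lyz2 probes went opposite ways there, 1 at -0.39 and 1 of the 5 that rose at 0.62. Over the alternatives other than leaving out 1 RNA they ran from -0.49 to 0.12 and from 0.12 to 0.65, so no direction is read for Lyz2. In parental cells after 72 h of GM-CSF macrophage genes rose for 6 of 9 probes and granule genes for 2 of 15, where 5.47% of all probes passed. Mast cell genes fell for 4 of 8 in each of those. In V449E cells at 72 h 0 of all 21797 probes passed, so that no list could.

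The mean level of the granule list ranged from -0.85 to -0.23 over the 12 V449E RNAs, from -0.11 to 1.23 over the FI-Delta RNAs and from -0.40 to 0.76 over the parental RNAs. The mast cell list ranged from 0.12 to 0.50 in V449E, from -0.79 to 0.19 in FI-Delta and from -0.59 to 0.39 in parental cells. The macrophage list ranged from -0.26 to 0.29 in V449E, from -0.17 to 0.65 in FI-Delta and from -0.76 to 0.32 in parental cells. The erythroid list stayed between -0.24 and 0.12 and the lymphoid list between -0.06 and 0.06 in all 3 lines. These are levels relative to the other RNAs, so no marker can be read from them as absent. The part of these cell type markers in the differences of S100a8, S100a9 and S100a10 was not tested.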

How the data were processed

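RNA was measured on 116 two-colour spotted arrays (Cy5 for channel 1, Cy3 for channel 2). The authors deposited 1 normalized log2 ratio per probe and array, and limma is named, without a version, in the submitters' processing notes. Per the labels, arrays of print run 1 (90) and print run 2 (26) were brought to one probe order. In the parental time course and in FI-Delta against parental cells, replicate 1 was on run 1 only and replicate 2 on run 2 only. Replicate and print run cannot be told apart in those comparisons. Leaving out run 2 also removes replicate 2 of the parental cells at all times after 0 h. The background correction, the normalization, the genome build, and the log base and direction of the ratio are not given in the sources used here. A base of 2 and Cy5 over Cy3 were assumed. No signal intensities were used here. Conditions were on 8 to 32 arrays, but the fit used the 2 RNA levels of each condition without weights. More arrays for a condition therefore gave it no smaller SE, and the 2 replicates limit the precision.

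Of 23040 probes, 1243 controls were left out. Of the 21797 tested, 16651 had 1 gene symbol, 137 several and 5009 none. Groups were taken from the labels. The 2 arrays of a dye swap were turned the same way and averaged, and a level per RNA was solved by least squares within each replicate. The levels were fitted with limma 3.58.1 in R 4.3.3, with a coefficient per condition and the replicate as a block (17 residual degrees of freedom), and adjusted by Benjamini-Hochberg over all probes at a threshold of 0.05. On simulated data for V449E against FI-Delta at 72 h over 21797 probes, 92.5% of changes of 0.5, 98.8% of 1 and 100% of 2 (log2) were found, and 1.03% of calls were false. The simulation had 195 calls, against 3634 in the data. Its changed probes were drawn from all probes, whose median SE in the data was 0.0904. S100a8 and S100a9 had SEs of 0.43 and 0.48, so these shares do not hold for those 2 genes.

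The members and all gene lists were chosen with earlier results of these data known, so the adjusted p-values of list genes are a description too. The text names the 3 members, the other S100 genes, Anxa2, Tlr4, up to 4 genes per list by size among those past the threshold, and the 5 genes with the highest correlation to each member. Where a count fell outside that rule its genes were named after their values were seen. The replicate numbers come from the labels. No array joins the replicates, and deviations of RNAs with the same number had a median correlation of -0.0697 over 153 pairs of conditions (-0.365 to 0.403). The alternatives were a fit without the replicate block, direct arrays only, dye-swap pairs as the unit, arrays scaled to one spread, no print run 2, 1 dye orientation only, 1-symbol probes only, probes averaged per gene, and each RNA left out in turn.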

Additional observations from a re-analysis of the deposited data

How the results depend on the processing

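No difference of a member that passed changed sign under any alternative, and the V449E minus FI-Delta differences at 72 h passed under all of them. Without the replicate block no member value can move, since levels are centred within each replicate (S100a8 at 72 h -2.34 in both), and of the counts of probes past the threshold only FI-Delta minus parental at 72 h moved by over 1.5 times, to 292 against 193 with the block. The replicate numbers were not taken to pair the samples. With direct arrays only, V449E minus parental at 0 h was -2.26 for S100a8, -2.45 for S100a9 and 0.80 for S100a10, V449E minus FI-Delta at 0 h was -2.28 and -2.61 for S100a8 and S100a9, and FI-Delta minus parental at 0 h was -0.56 for S100a10. None of these passed. The change of FI-Delta cells at 72 h was then 0.44 for S100a8 and -0.03 for S100a10, and 0.23 for S100a10 with scaled arrays. Without print run 2, V449E minus FI-Delta at 0 h was -2.42 for S100a8 and -2.54 for S100a9, neither past the threshold. In 1 dye orientation, S100a9 in that comparison was -2.48 (Cy3), and S100a10 in FI-Delta minus parental at 0 h was -1.08 (Cy5) and -0.96 (Cy3), none past it. Of the later S100a10 differences between FI-Delta and parental cells, 6 h missed it in Cy3 only (-0.87), 12 h in Cy5 only (-1.08) and without print run 2 (-0.85), 24 h in Cy5 only (-1.30), and 48 h in both (-1.22 and -0.94). The cause was not tested.

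Without 1 RNA, V449E minus parental at 0 h ran from -3.59 to -1.23 for S100a8 and from -3.89 to -1.23 for S100a9, and V449E minus FI-Delta at 0 h from -3.60 to -1.23 and from -3.84 to -1.18. FI-Delta minus parental ran at 0 h from -1.19 to -0.85 for S100a10, from -0.35 to 0.36 for S100a8 and from -0.38 to 0.29 for S100a9, and at 72 h from -0.38 to 0.21 for S100a9. The 72 h change ran in FI-Delta cells from 0.37 to 0.95 for S100a8, from 0.61 to 1.20 for S100a9 and from -0.10 to 0.25 for S100a10, and in parental cells from 0.61 to 1.28 for S100a9.

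Probes past the threshold moved more. V449E minus parental at 0 h had 160, 3041 with array pairs as the unit, 104 with scaled arrays, 337 without print run 2, 93 in Cy5 only, 81 in Cy3 only, and 20 to 139 without 1 RNA. V449E minus FI-Delta at 0 h had 49, 2370 with array pairs, 200 with direct arrays, 19 and 23 in Cy5 and Cy3 only, and 10 to 36 without 1 RNA. At 72 h it had 3634, 6191 with array pairs, 1947 with scaled arrays, 2386 in Cy3 only, and 2012 to 2581 without 1 RNA. FI-Delta minus parental at 0 h had 23, 1176 with array pairs, 112 with direct arrays, 42 without print run 2, 4 and 12 in Cy5 and Cy3 only, and 3 to 19 without 1 RNA. At 72 h it had 193, 1414 with array pairs, 290 with direct arrays, 92 with scaled arrays, 125 without print run 2, 99 and 57 in Cy5 and Cy3 only, and 24 to 180 without 1 RNA. The 72 h change in FI-Delta cells had 3326, 6725 with array pairs, 1581 with scaled arrays, 1725 and 2203 in Cy5 and Cy3 only, and 1485 to 2425 without 1 RNA. In parental cells it had 1192, 2926 with array pairs, 761 with scaled arrays, 403 in Cy5 only, and 458 to 777 without 1 RNA. In V449E cells it had 0, 27 with array pairs, 29 with direct arrays, and 0 to 49 without 1 RNA. With array pairs as the unit, dye-swap pairs of 1 RNA count as separate samples, so its larger counts follow from its construction.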

Other observations

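The 0 h RNAs of the 3 lines were hybridised to one another directly, which gives 2 routes to the V449E minus FI-Delta difference. For S100a10 the direct arrays gave 2.16 in replicate 1 and 2.64 in replicate 2, whereas the sum over the parental RNA, V449E minus parental less FI-Delta minus parental, gave 1.10 and 1.61. The parts of that sum were 0.72 and 0.88 for V449E minus parental and -0.38 and -0.73 for FI-Delta minus parental. The direct value was larger in both replicates, and the level used in the report lies between the routes. For S100a8 the routes gave -3.38 and -1.17 directly and -2.74 and -1.59 by the parental RNA, and for S100a9 -3.70 and -1.52 directly and -3.29 and -1.36 by the parental RNA. There the 2 replicates differed by more than the 2 routes. The cause was not tested.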
